A study of Mus musculus with 26 samples.

Results

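The 8 genes described here encode the central receptor of the endocannabinoid system and the enzymes that make and break down its ligands, in neurons of mouse dorsal striatum. They were chosen by name as receptor, synthesis and breakdown genes, 8 of the 31977 genes that the 26 count tables share, and all 8 were found in every table and passed the filter on low counts. RNA bound to ribosomes was purified from adult Drd2-TRAP mice of line CP101, in which the tagged ribosomal protein EGFP/Rpl10a is made under Drd2 control, so the fraction stands for cells that express Drd2 and not for the whole striatum. Every group, controls included, carries this transgene on an FVB/N-Swiss Webster background crossed to C57BL/6 for at least 9 generations, and the mice self-administered cocaine or saline intravenously in a long-access design. The purified libraries were 9 from cocaine mice of the nonescalating group after withdrawal, 5 from saline mice after withdrawal, 2 from cocaine mice of the escalating group, 4 from cocaine mice of the nonescalating group and 3 from saline mice. Inputs, RNA of the whole dissected tissue, were 1 library each from saline withdrawal, cocaine nonescalating and saline mice. The libraries form sets A and B by their numbers: set A holds every library without withdrawal, 4 cocaine withdrawal and 2 saline withdrawal libraries, and set B the other 5 and 3. The sources used here do not state the length of withdrawal. Nothing in the labels ties each library to an animal of its own, so the p-values reflect only how these libraries vary, which may be technical.

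Endocannabinoids are lipid messengers that are made on demand in the postsynaptic cell and travel backwards across the synapse, where they act on the CB1 receptor of axon terminals and lower transmitter release. The main ones are 2-arachidonoylglycerol (2-AG), which diacylglycerol lipases cut from membrane lipid, and anandamide, an N-acylethanolamine. In the striatum this signalling is known for long-term depression of the cortical inputs to indirect-pathway medium spiny neurons, the neurons that carry the D2 dopamine receptor. Medium spiny neurons also carry CB1 on their own axon terminals.

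By role, Cnr1 encodes the CB1 receptor (GRCm38 by GENCODE M21, chr4:33924593-33948831, plus strand). Dagla and Daglb encode the diacylglycerol lipases that make 2-AG, of which Dagla's product makes most of it in adult brain (chr19:10245265-10304877, minus strand, and chr5:143464584-143505942, plus strand). Napepld encodes the phospholipase D that releases N-acylethanolamines (chr5:21662901-21701396, minus strand). Mgll encodes monoacylglycerol lipase, the main enzyme that breaks down 2-AG (chr6:88724412-88828360, plus strand). Abhd6 and Abhd12 encode membrane hydrolases that take a smaller share of 2-AG, and Abhd12's product also acts on lysophosphatidylserine (chr14:8002902-8056763, plus strand, and chr2:150832493-150904741, minus strand). Faah encodes the hydrolase that breaks down anandamide (chr4:115967145-116017926, minus strand). All are annotated as protein coding. Exons of Daglb share 2309 bases, 24.1% of its exon length, with Rac1 on the other strand, and those of Mgll share 167 bases (3.29%) with the antisense gene Gm26588. The sources used here do not state whether counting used strand. Counts of Daglb and Mgll may therefore be lowered by reads that fit more than 1 gene and were assigned to none. Such ambiguous reads were 0.94% to 2.85% of uniquely aligned reads in purified libraries and 8.61% to 12.82% in inputs. Their part in the levels of these genes was not tested.

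Start regions are shown for the members whose windows hold a motif and whose levels moved with a property of the libraries described further on, Cnr1 and Mgll downwards and Napepld upwards. Dagla and Abhd12, whose levels moved downwards too, had no window at hand. RefSeq windows of GRCm38.p6, from 250 bases before to 50 bases after a start, were at hand for 6 of the 8 genes (10 windows). They were searched on both strands for the E-box CACGTG, which reads the same on both, and for the YY1 core AAGATGG, whose form on the other strand is CCATCTT. The motifs do not overlap each other and were picked after the windows had been read. The E-box stood in 7.15% and the YY1 core in 6.34% of all 32851 windows of the table. Counted by gene, these shares were 8.09% and 7.28% of 27025 genes. The Cnr1 sequence (chr4:33924394-33924643, plus strand) has the E-box 49 bases before the start, the Mgll sequence (chr6:88724162-88724411, plus strand) has it 44 bases before, and the Napepld sequence (chr5:21701623-21701872, minus strand) has 3 YY1 cores, 232, 190 and 103 bases before. The 250 bases before each start are given, 5′ to 3′ on the gene's strand, with the motifs in capitals. The windows of Faah and Abhd6, whose levels moved downwards too, hold neither motif. The Daglb window and the other windows of Cnr1 and Mgll hold neither. A match describes the letters and is not evidence of binding.
Cnr1: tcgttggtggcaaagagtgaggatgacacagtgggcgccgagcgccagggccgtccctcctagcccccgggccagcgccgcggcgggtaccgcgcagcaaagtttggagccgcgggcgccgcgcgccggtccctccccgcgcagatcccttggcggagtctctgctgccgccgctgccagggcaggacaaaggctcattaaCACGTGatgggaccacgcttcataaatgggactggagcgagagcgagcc
Mgll: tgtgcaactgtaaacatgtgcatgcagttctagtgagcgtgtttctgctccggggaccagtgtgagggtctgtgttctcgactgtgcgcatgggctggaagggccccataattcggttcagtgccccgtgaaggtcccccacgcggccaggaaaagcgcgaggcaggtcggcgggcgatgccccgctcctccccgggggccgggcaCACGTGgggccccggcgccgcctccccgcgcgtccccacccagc
Napepld: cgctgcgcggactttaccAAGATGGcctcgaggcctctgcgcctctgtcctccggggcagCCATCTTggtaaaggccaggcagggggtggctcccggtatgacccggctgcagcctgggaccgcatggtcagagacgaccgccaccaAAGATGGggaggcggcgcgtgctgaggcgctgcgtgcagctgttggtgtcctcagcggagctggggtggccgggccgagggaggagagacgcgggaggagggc

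Counts assigned to genes came to 3279457 to 19122303 per purified library and 5016587 to 11549493 per input, and levels are given as CPM, these counts scaled to the library total after TMM adjustment. The purification showed in Drd2, at 3037 ± 1571 CPM in the 12 purified libraries of conditions with an input and 473 ± 71.0 CPM in the 3 inputs (SD; log2 fold change 2.79 ± 0.38, SE, edgeR adjusted p = 0.000459). Drd1, the receptor of direct-pathway neurons, was lower (-3.25 ± 0.32, adjusted p = 2.21e-05). Of fixed marker lists, 5 of 6 indirect-pathway genes were called higher, as were 3 of 7 of endothelium and mural cells. Called lower were 4 of 6 direct-pathway, 5 of 7 astrocyte and 5 of 6 oligodendrocyte genes. The share of uniquely aligned reads that fell outside genes ran from 21.24% to 70.70% over purified libraries and from 27.32% to 31.57% over inputs. The 2 libraries farthest from the purified median of 36.05% were saline withdrawal set A replicate 1 at 70.7% and cocaine nonescalating withdrawal set A replicate 1 at 60.7%. Cocaine nonescalating withdrawal set B replicate 4 was close behind at 58.4%.

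Per kilobase of exon, Cnr1, Dagla and Abhd12 were the most abundant of the 8 transcripts in the purified fraction. In the 3 inputs the same genes led, at means of 45.4 (Cnr1), 29.7 (Abhd12) and 22.0 (Dagla) CPM per kb. Over the 23 purified libraries Cnr1 stood at 29.3 ± 11.7 CPM per kb (SD), Dagla at 24.7 ± 13.3 and Abhd12 at 21.8 ± 9.44. Their order is not fixed: Cnr1 exceeded Dagla in 14 and Dagla exceeded Abhd12 in 12 of the 23 libraries, and with the longest transcript as the length Abhd12 passed Dagla. Mgll followed at 10.2 ± 3.38 CPM per kb, below Abhd12 in all 23 libraries, then Abhd6 at 6.05 ± 2.19, below Mgll in 21. Napepld was at 2.81 ± 1.42 CPM per kb, below Abhd6 in 20 libraries. Daglb (0.949 ± 0.375) and Faah (0.539 ± 0.405) were the scarcest, Daglb below Napepld in 22 libraries and Faah below Daglb in 20. These neighbours differ by ratios of 1.11 (Cnr1 over Dagla, median over libraries) to 2.57 (Napepld over Daglb). In paired enzymes, the 2-AG synthase Dagla was 26.2 times Daglb per kb in the median library, with a range of 3.75 to 74.8. Over the inputs this ratio ran from 5.40 to 81.6. The 2-AG hydrolase Mgll was 24.2 times the anandamide hydrolase Faah (4.36 to 73.6, and 7.34 to 9.96 over the inputs). Ratios with Daglb depend on the length used: with the longest transcript, Daglb averaged 1.86 CPM per kb, Dagla 25.2 and Napepld 2.81.

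**Figure D1:**
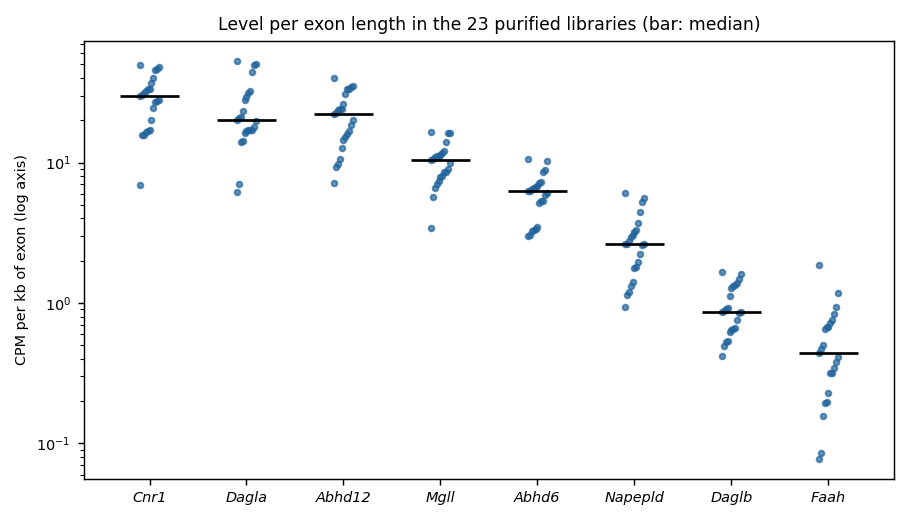
CPM per kilobase of exon (log axis) of each gene in the 23 purified libraries, with 1 point per library and a bar at the median. Cnr1, Dagla and Abhd12 overlap at the top, with means of 21.8 to 29.3 CPM per kb, while Faah lies lowest at 0.539.

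The first comparison asks which of the 8 transcripts are concentrated in Drd2 cells. None was called between purified and input RNA (0 of 8), where edgeR called 1152 of 15610 genes (7.38%), 559 higher and 593 lower. The signs were 3 positive and 5 negative, with a median log2 fold change of -0.55 beside 0.16 over all genes tested, of which 56.7% were positive. An unadjusted p under 0.05 was reached by 2 of 8 members, beside 4102 of the 15610 genes. DESeq2 and limma voom called 0 of 8 as well.

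The CB1 receptor transcript did not pass the test. Cnr1 was at 44.5, 191 and 309 CPM (lowest, median and highest of 12) in purified libraries, against 321 CPM in the saline withdrawal input, 229 in the cocaine nonescalating input and 328 in the saline input. The cocaine nonescalating input lies within the purified range and the other 2 inputs lie above it. The log2 fold change was -0.48 ± 0.30 (SE, 95% interval -1.12 to 0.17, adjusted p = 0.332).

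Of the synthesis enzymes, none passed the test either. Dagla was at 35.6, 118 and 254 CPM in purified libraries, against 156, 132 and 92.4 CPM in the saline withdrawal, cocaine nonescalating and saline inputs. The inputs lie within the purified range, with a log2 fold change of 0.13 ± 0.32 (interval -0.54 to 0.81, adjusted p = 0.83) that turned to -0.20 without the saline input. Daglb was at 4.04, 8.21 and 15.8 CPM in purified libraries, against 3.18, 40.6 and 10.1 CPM in the same inputs. The inputs span a wider range than the purified libraries, and the log2 fold change of -0.87 ± 0.63 (interval -2.21 to 0.47) became 0.46 without the cocaine nonescalating input. Napepld was at 4.76, 10.4 and 23.99 CPM in purified libraries, against 0.227 CPM (1 count), 3.56 and 10.8 CPM in the inputs. Its log2 fold change was 1.197 ± 0.79 (interval -0.47 to 2.87, adjusted p = 0.349), and 0.38 without the saline withdrawal input.

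Among the breakdown enzymes, again none was called, with a fold change near 0 for Mgll and negative values for the other 3. Mgll was at 17.2, 48.3 and 84.1 CPM in purified libraries, against 51.4, 55.9 and 44.3 CPM in the inputs (log2 fold change 0.13 ± 0.30, interval -0.50 to 0.77). Abhd12 was at 20.1, 48.6 and 87.6 CPM in purified libraries, against 88.0, 82.8 and 81.1 CPM in the inputs. The inputs lie close together, at the top of the purified range or just above it, with a log2 fold change of -0.62 ± 0.26 (interval -1.16 to -0.08, unadjusted p = 0.0277, edgeR adjusted p = 0.141). Abhd6 was at 7.07, 13.4 and 21.04 CPM in purified libraries, against 28.2, 32.1 and 16.1 CPM in the inputs. The saline input lies within the purified range and the other 2 above it. The log2 fold change was -0.86 ± 0.38 (interval -1.67 to -0.05, unadjusted p = 0.0398, edgeR adjusted p = 0.169). Faah was at 0.669, 3.80 and 9.19 CPM in purified libraries, against 7.96, 11.7 and 7.89 CPM in the inputs, with a log2 fold change of -1.10 ± 0.57 (interval -2.31 to 0.12). Astrocyte markers summed to 132 to 460 CPM over purified libraries and 1962 to 3035 CPM over inputs, and the part of other cells in these differences was not tested. Lower RNA of a gene in bulk material cannot be told apart from fewer cells that carry it.

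**Figure D2:**
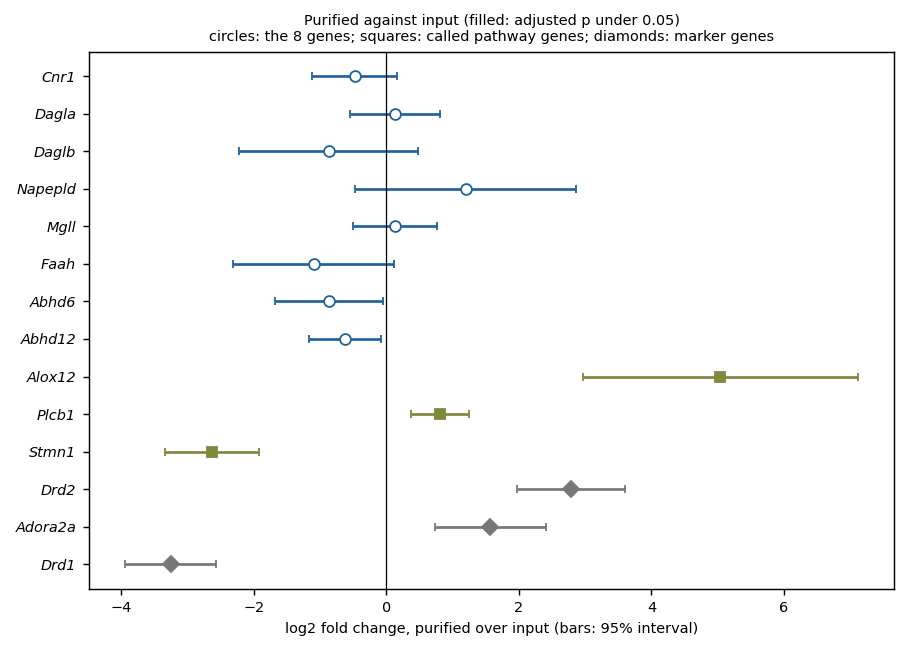
Log2 fold change of purified over input RNA with its 95% interval, for the 8 genes (circles), called genes of the wider pathway (squares) and marker genes (diamonds), filled where the edgeR adjusted p is under 0.05. All 8 circles are open, while Drd2 at 2.79 and Drd1 at -3.25 are filled on opposite sides.

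In the wider pathway, a list of 40 further receptor, 2-AG mobilisation, N-acylethanolamine synthesis, breakdown and carrier genes, 32 were tested here, with 2 called higher and 1 lower (median log2 fold change 0.35). These 3 are 9.38% of the list, near the 7.38% of all genes. Alox12, a lipoxygenase that oxidises arachidonoyl lipids, was at 5.64, 31.2 and 64.8 CPM (lowest, median and highest of 12) in purified libraries, against 1.14, 0 and 1.70 CPM in the saline withdrawal, cocaine nonescalating and saline inputs. The groups do not overlap, and the log2 fold change was 5.04 ± 0.98 (adjusted p = 0.00721), lost with set A alone (adjusted p = 0.0631), with voom (0.0743) and with a replicate block (0.113). The summed endothelium and mural markers, of which 3 of 7 were called higher, were at 55.4 to 6781 CPM over all purified libraries and 101 to 259 CPM over inputs, and their part in Alox12 was not tested. Plcb1, the phospholipase C that supplies diacylglycerol downstream of Gq-coupled receptors, was at 438, 881 and 1245 CPM in purified libraries, against 535, 487 and 564 CPM in the inputs. The lowest purified library lies below every input and the median far above them. The log2 fold change was 0.81 ± 0.21 (adjusted p = 0.029), and the call was lost when any of the 3 inputs was left out (adjusted p up to 0.151), without saline replicate 4 (0.0529), with set A alone (0.121), with no term for the set (0.141) and with a replicate block (0.27). Stmn1, a microtubule regulator that stands in the list of carriers, was at 4.69, 8.15 and 18.5 CPM in purified libraries, against 43.0, 72.0 and 49.4 CPM in the inputs, without overlap. Its log2 fold change was -2.62 ± 0.34 (adjusted p = 0.000251; 0.0559 with a replicate block, which ends the call).

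Cocaine was compared with saline after withdrawal in 9 and 5 libraries, the largest groups. No member was called (0 of 8), as no gene was (0% of 16908; 881 genes had an unadjusted p under 0.05, DESeq2 called 33 and voom 0). Log2 fold changes were positive for 6 of 8 members and for 50.9% of all genes, with a median of 0.20 beside 0.01 over all genes. Abhd12 came nearest. It was at 27.6, 68.3 and 113 CPM (lowest, median and highest of 9) in cocaine nonescalating withdrawal libraries, against 20.1, 26.3, 35.8, 57.1 and 62.5 CPM in saline withdrawal libraries. Of the 9 cocaine libraries 6 lie above every saline library, and the lower ends overlap. The log2 fold change was 0.82 ± 0.35 (interval 0.10 to 1.55, unadjusted p = 0.0274, edgeR adjusted p = 0.749).

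The receptor and the other enzymes overlapped widely in that comparison. Cnr1 was at 101, 193 and 317 CPM in cocaine withdrawal libraries, against 44.5, 108, 176, 259 and 296 CPM in saline withdrawal libraries (log2 fold change 0.20 ± 0.39, interval -0.60 to 0.996). Dagla was at 40.7, 95.8 and 306 CPM, against 35.6, 97.4, 97.7, 113 and 116 CPM in saline withdrawal (0.35 ± 0.40, interval -0.46 to 1.17). The ranges overlap for both genes, and 3 cocaine libraries exceed every saline library in Dagla. Napepld was at 4.55, 10.99 and 20.7 CPM in cocaine withdrawal, against 10.4, 11.8, 14.8, 22.1 and 23.99 CPM in saline withdrawal (-0.54 ± 0.36, interval -1.30 to 0.21), and 4 of the 9 cocaine libraries lie below every saline library. Abhd6 had 0.45 ± 0.36, Mgll 0.20 ± 0.31, Daglb 0.03 ± 0.38 and Faah -0.19 ± 0.70 on the log2 scale, and their intervals all hold 0.

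Values within the library sets are given next. Saline withdrawal replicate 2 stands in set A by its number, but its table has the 32531 symbols of the set B tables, where the other set A tables have 32657, and its depth of 3279457 gene counts is near theirs, so its set is in doubt. Within set A, Dagla was at 98.6, 285, 290 and 306 CPM in 4 cocaine withdrawal libraries, against 35.6 and 97.7 CPM in saline withdrawal libraries. Within set B it was at 40.7, 80.8, 81.6, 93.5 and 95.8 CPM in cocaine withdrawal libraries, against 97.4, 113 and 116 CPM in saline withdrawal libraries. The groups do not overlap in either set, with cocaine above saline in A and below it in B, and in each set a pair of libraries nearly touches. How many of all genes lack overlap within these sets was not counted. Cnr1 in set A was at 109, 196, 216 and 317 CPM in cocaine withdrawal, against 44.5 and 108 CPM in saline withdrawal. In set B it was at 101, 101, 159, 193 and 299 CPM in cocaine withdrawal, against 176, 259 and 296 CPM in saline withdrawal. The log2 fold changes within A and B were 1.88 ± 0.52 and -0.48 ± 0.26 for Dagla, 1.46 ± 0.50 and -0.53 ± 0.32 for Cnr1, and 1.74 ± 0.49 and 0.25 ± 0.35 for Abhd12. For Napepld they were -0.68 ± 0.62 and -0.41 ± 0.46 and for Daglb -0.07 ± 0.63 and 0.10 ± 0.50. Mgll had 1.13 ± 0.43 and -0.37 ± 0.30, Faah 1.59 ± 1.08 and -1.16 ± 0.70, and Abhd6 1.31 ± 0.55 and -0.07 ± 0.39. The signs thus differ between the sets for Dagla, Cnr1, Mgll, Faah, Abhd6 and Daglb, and are the same for Abhd12 and Napepld. The smallest of these edgeR adjusted p was 0.133 in A and 1 in B.

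The difference between the sets was tested in the 14 withdrawal libraries as an addition made after these values had been seen. For Dagla the log2 fold change in A minus that in B was 2.34 ± 0.62 (interval 1.02 to 3.67, edgeR adjusted p = 0.251), and for Cnr1 it was 1.97 ± 0.64 (0.62 to 3.33, adjusted p = 0.251). No member and no gene was called (0% of 13573; 2059 genes and 4 of 8 members had an unadjusted p under 0.05). In a fit also added afterwards, with replicate 2 of saline withdrawal counted in set B, which leaves 1 saline library in A, the difference was 3.17 ± 0.70 for Dagla (adjusted p = 0.102) and 2.49 ± 0.81 for Cnr1 (0.151), again with no call (2319 genes with an unadjusted p under 0.05). Without saline withdrawal set A replicate 1, 458 of 13684 genes and 1 of 8 members had one. Replicate 1 had 70.7% of its reads outside genes, and without it the pooled log2 fold changes became -0.15 for Cnr1, -0.05 for Dagla and 0.59 for Abhd12. With the share of reads outside genes as a covariate they were -0.06 ± 0.19, 0.11 ± 0.21 and 0.44 ± 0.20 (adjusted p = 0.637 for Abhd12).

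**Figure D3:**
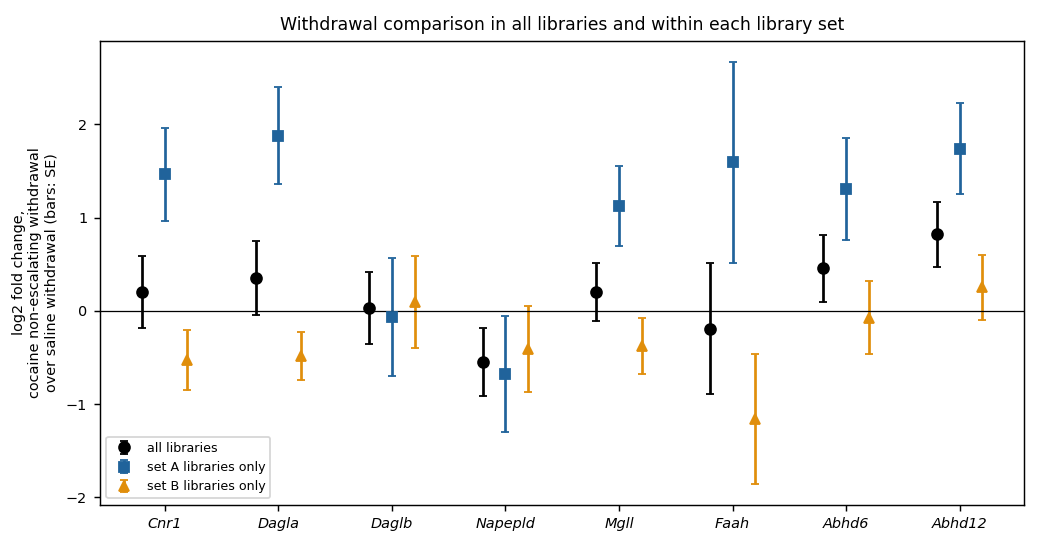
Log2 fold change of cocaine nonescalating withdrawal over saline withdrawal with its SE, for each gene in all libraries (circles), in set A alone (squares) and in set B alone (triangles). Cnr1, Dagla, Mgll, Faah and Abhd6 are above 0 in set A and below 0 in set B, and Abhd12 is above 0 in all 3 fits.

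Without withdrawal, all libraries are of set A. Against saline, no member was called in the cocaine escalating group (0 of 8) and no gene was (0% of 16908; 518 with an unadjusted p under 0.05, DESeq2 6, voom 0). Abhd12 again had the lowest p. It was at 94.0 and 98.6 CPM in escalating libraries, against 40.8, 44.9 and 67.0 CPM in saline libraries. The groups do not overlap, with a log2 fold change of 0.92 ± 0.53 (interval -0.17 to 2.01, edgeR adjusted p = 1). Here and in the comparisons that follow, the share of all genes without overlap was not counted. A lack of overlap between so few libraries therefore only describes them. Cnr1 was at 175 and 217 CPM in escalating libraries, against 129, 202 and 209 CPM in saline libraries (0.12 ± 0.59, interval -1.10 to 1.34). Dagla was at 122 and 187 CPM, against 120, 179 and 254 CPM in saline libraries, so that both genes overlap.

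In the cocaine nonescalating group against saline, again 0 of 8 members and 0% of 16908 genes were called (356 with an unadjusted p under 0.05, none of them a member, DESeq2 6, voom 0). Faah, the anandamide hydrolase, showed the largest difference of the 8. It was at 3.69, 5.13, 6.58 and 9.19 CPM in nonescalating libraries, against 1.79, 2.50 and 2.69 CPM in saline libraries. The groups do not overlap, and the log2 fold change was 1.39 ± 0.91 (interval -0.49 to 3.28, adjusted p = 1) on 20 to 73 counts per library. Cnr1 was at 106, 179, 238 and 309 CPM in nonescalating libraries, against 129, 202 and 209 CPM in saline libraries (0.21 ± 0.50, interval -0.82 to 1.24).

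Escalating and nonescalating groups, the comparison of intake patterns, did not differ in a called gene either (0 of 8 members, 0% of 16908; 558 genes with an unadjusted p under 0.05, DESeq2 15, voom 0). Napepld was at 3.70 and 5.23 CPM in escalating libraries, against 5.63, 7.18, 10.4 and 12.7 CPM in nonescalating libraries. The escalating pair lies just below the others, with a log2 fold change of -1.01 ± 0.60 (interval -2.25 to 0.24, edgeR adjusted p = 1). Abhd12 was at 94.0 and 98.6 CPM in escalating libraries, against 43.0, 52.2, 63.8 and 87.6 CPM in nonescalating libraries (0.64 ± 0.49, interval -0.38 to 1.67), also without overlap. These comparisons share libraries: the escalating pair enters the comparisons with saline and with nonescalating mice.

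Withdrawal was compared within saline and within cocaine mice. After withdrawal no member was called in saline mice (0 of 8; 0% of 16908, 884 with an unadjusted p under 0.05, DESeq2 8, voom 0). Napepld was at 10.4, 11.8, 14.8, 22.1 and 23.99 CPM in saline withdrawal libraries, against 4.76, 10.3 and 10.3 CPM in saline libraries. All withdrawal values are above the others, some barely, and the log2 fold change was 0.94 ± 0.53 (interval -0.17 to 2.05, edgeR adjusted p = 0.782). The saline libraries are all of set A. The set A withdrawal values are 10.4 CPM (replicate 2, whose set is in doubt) and 23.99 CPM (replicate 1, with 70.7% of reads outside genes). With that share as a covariate the log2 fold change was 0.67 ± 0.51 (edgeR adjusted p = 0.953). In nonescalating cocaine mice none was called either (0 of 8 members, 0% of 16908 genes, 763 with an unadjusted p under 0.05, DESeq2 21, voom 0). Log2 fold changes ran from -0.40 ± 0.74 (Faah) to 0.44 ± 0.43 (Dagla). With the share of reads outside genes as a covariate, Faah had -0.15 ± 0.65 and Dagla 0.78 ± 0.25 (edgeR adjusted p = 0.576 for Dagla). The interaction, the cocaine effect after withdrawal minus that without it, called 0 of 8 members and 0% of 16908 genes (344 with an unadjusted p under 0.05, DESeq2 4, voom 0). Its outer values were -1.59 ± 1.14 for Faah (interval -3.94 to 0.77) and 0.73 ± 0.63 for Dagla (-0.57 to 2.04).

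**Figure D4:**
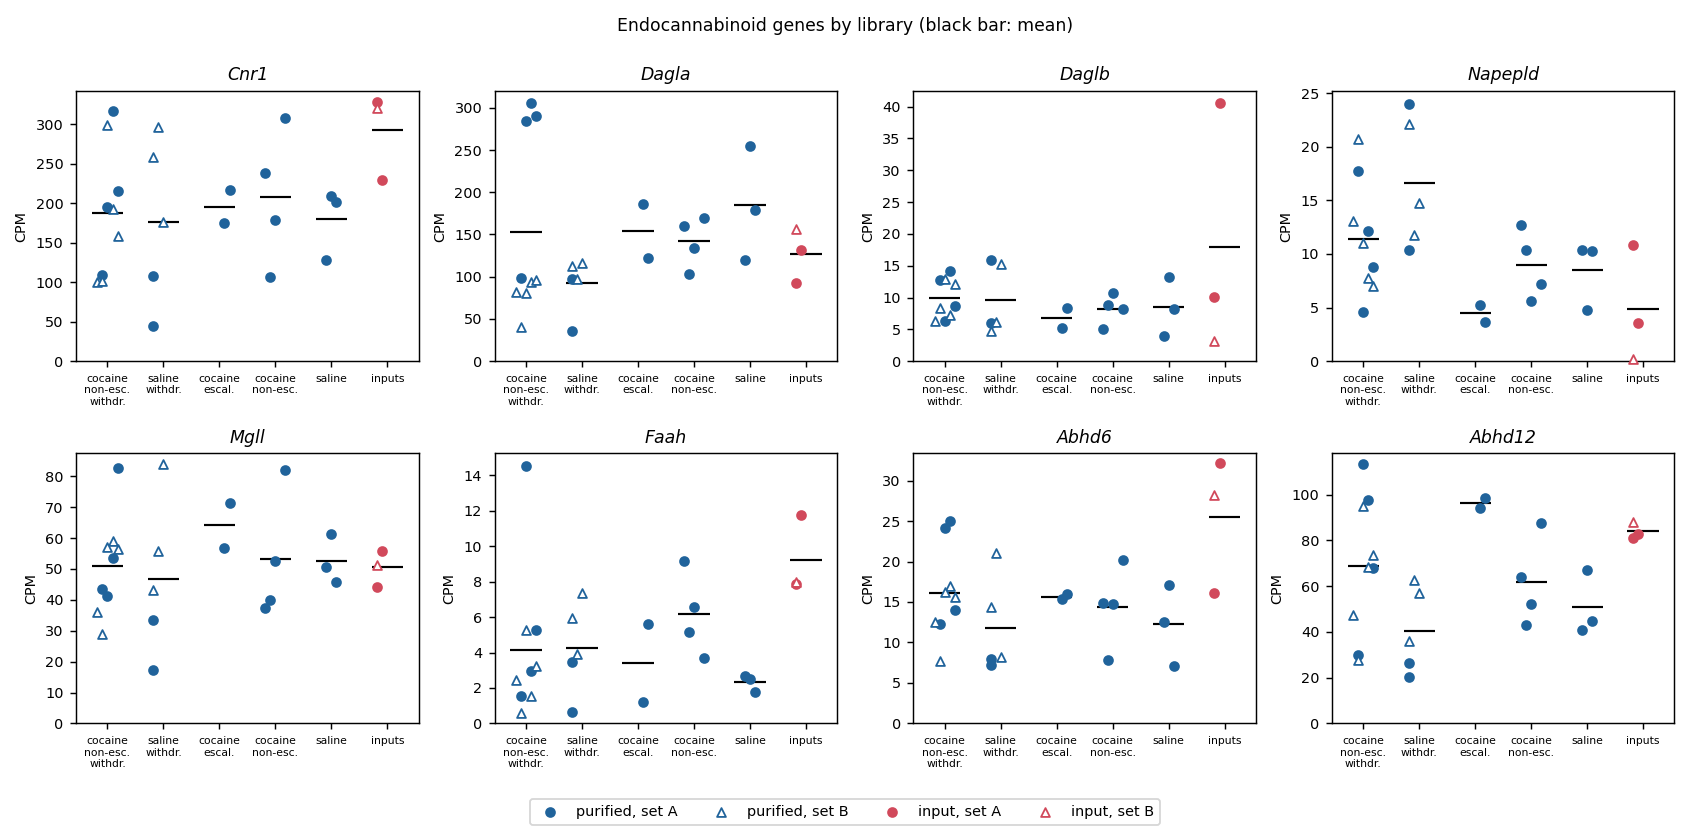
CPM of each gene in every library, for cocaine nonescalating withdrawal, saline withdrawal, cocaine escalating, cocaine nonescalating and saline purified libraries and the inputs, with filled circles for set A, open triangles for set B and a bar at the mean. Groups overlap for most genes; the 3 Dagla values from 285 to 306 CPM are all set A cocaine withdrawal libraries.

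In the wider pathway, 34 of the 40 genes were tested across these groups and none was called in any of the 7 comparisons. The lowest p belonged to Fabp5 in cocaine against saline withdrawal. Fabp5, a fatty acid binding protein that carries anandamide inside cells, was at 4.46, 16.3 and 30.0 CPM (lowest, median and highest of 9) in cocaine withdrawal libraries, against 2.73 to 10.7 CPM in 5 saline withdrawal libraries. The groups overlap at their lower ends, with a log2 fold change of 1.35 ± 0.51 (unadjusted p = 0.0139, edgeR adjusted p = 0.749). Gdpd1, a phosphodiesterase that yields N-acylethanolamines, came next at 0.90 ± 0.36 (adjusted p = 0.749). In nonescalating against saline mice the lowest p belonged to Fabp3, another carrier, at 1.01 ± 0.60, and to the phosphatase Ptpn22, which had 0 to 7 counts in nonescalating and 0 to 54 counts in saline libraries. Ppara, a nuclear receptor for N-acylethanolamines, had 0 and 7 counts in escalating libraries, against 8 to 125 counts in saline and 0 to 120 counts in nonescalating libraries, and Alox12 followed it in both comparisons (-1.39 ± 1.06 and -1.57 ± 1.04). Between saline withdrawal and saline mice the lowest p belonged to Pparg, at 0 to 1 counts in saline withdrawal and 0 to 10 counts in saline libraries, and to Abhd2, a monoacylglycerol hydrolase, at 1.01 ± 0.51. Between cocaine nonescalating withdrawal and nonescalating mice these were Stmn1 (-0.92 ± 0.38) and Fabp3 (-1.09 ± 0.49), and for the interaction Fabp5 (1.12 ± 0.80) and Pparg. Adjusted p was 0.749 or more for each gene named here.

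What the members did follow was the share of reads outside genes. Over the 23 purified libraries the log2 CPM of 7 of 8 members was related to it by permutation (100000 resamples, two-sided, adjusted over 16908 genes), 6 negatively and 1 positively. Of all genes 23.8% had a called negative and 30.2% a called positive relation, so a call is common among genes, and libraries share both measures' source. Cnr1 had r = -0.87 (rho = -0.78, p = 1e-05, the smallest the resamples can give, adjusted p = 9.8e-05), and 1.45% of genes had an r at or below it. Abhd12 had r = -0.83 (rho = -0.76, p = 1e-05, adjusted p = 9.8e-05), with 3.61% of genes at or below. In CPM, Cnr1 was at 309 and 238 in the libraries with the lowest shares (24.36% and 21.24%) and at 44.5 in the library with the highest (70.7%).

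Among the other 2-AG enzymes, 3 had a called relation of the same sign and Daglb had none. Dagla had r = -0.73 (rho = -0.61, permutation p = 6e-05, adjusted 0.00032), Abhd6 r = -0.72 (rho = -0.76, p = 7e-05, adjusted 0.000359) and Mgll r = -0.65 (rho = -0.49, p = 0.00064, adjusted 0.0021). The anandamide enzymes split. Faah, which breaks it down, had r = -0.61 (rho = -0.46, permutation p = 0.00191, adjusted 0.00524), though the adjusted p of rho was 0.0527. Napepld, on the path that makes it, was the member with a positive relation, r = 0.60 (rho = 0.50, p = 0.00272, adjusted 0.00703). Daglb had r = 0.17 (rho = 0.04, p = 0.443).

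Without the 2 libraries farthest from the median, the relation remained called for Cnr1 (r = -0.80), Abhd12 (-0.75), Abhd6 (-0.75) and Dagla (-0.65). It was not called for Mgll (-0.48, adjusted permutation p = 0.0666), Faah (-0.45, 0.0912) and Napepld (0.44, 0.102), whose calls rest on those libraries while r kept its sign, and Daglb changed sign (-0.15). Mgll's call was also lost without saline withdrawal set A replicate 1 alone (adjusted p = 0.052). Within set A (15 libraries) the same 7 members were called, with r = -0.92 for Cnr1 and -0.88 for Abhd12. Within set B (8 libraries, exact permutation) none was called, with r = -0.81 for Cnr1 (unadjusted p = 0.0178, adjusted p = 0.186), -0.78 for Abhd6 (0.0221, 0.199), -0.68 for Abhd12, -0.62 for Dagla and Faah, -0.53 for Mgll, 0.48 for Napepld and -0.09 for Daglb. After group means were taken from both measures, r was -0.89 for Cnr1, -0.88 for Abhd12 and 0.54 for Napepld. The share itself averaged 40.7 ± 13.2% in cocaine withdrawal (n = 9), 47.5 ± 15.3% in saline withdrawal (n = 5), 33.4 ± 0.883% in escalating (n = 2), 31.9 ± 11.1% in nonescalating (n = 4) and 39.0 ± 10.7% in saline libraries (n = 3; SD).

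**Figure D5:**
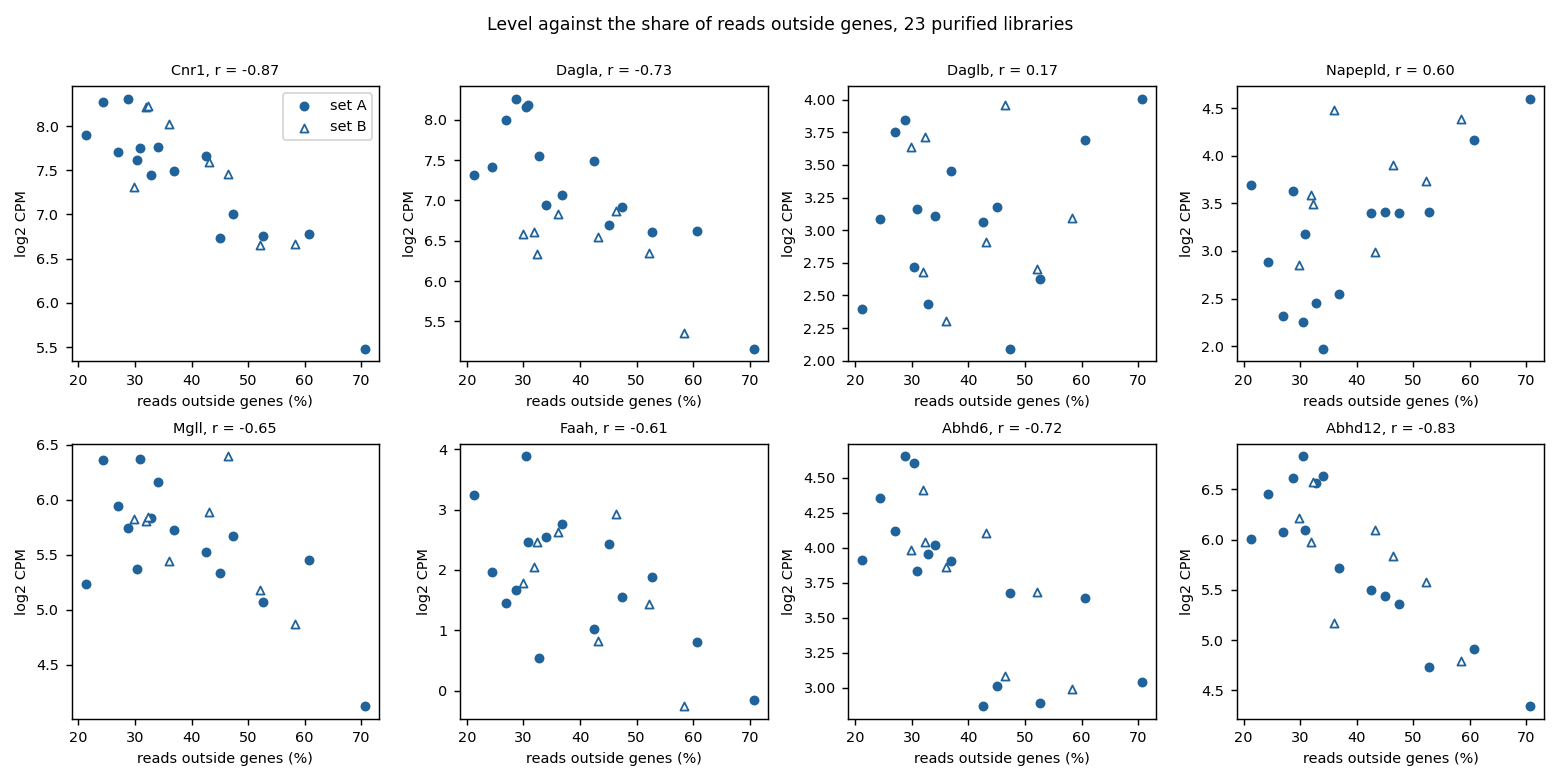
Log2 CPM of each gene against the percentage of uniquely aligned reads outside genes, with 1 point per purified library, filled for set A and open for set B. Cnr1 and Abhd12 slope down most closely (r = -0.87 and -0.83), Napepld slopes up (0.60) and Daglb shows no slope (0.17).

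Some cell type markers moved along the same axis. All 6 indirect-pathway markers had a called negative relation (median r = -0.855), with Drd2 at -0.80, and all 7 endothelium and mural markers a called positive one (median r = 0.72). Every other marker list was called in part or not at all, such as 0 of 6 direct-pathway, 2 of 7 astrocyte (positive) and 2 of 6 oligodendrocyte genes (negative). Of 11 genes of 2-AG mobilisation 5 were called negative and 2 positive. Grm5, a metabotropic glutamate receptor that triggers 2-AG release, had r = -0.87, and the muscarinic receptor Chrm1 had -0.87. The phospholipases split: Plcb4 and Plcb3 had 0.92 and 0.76, Plcb1 had -0.78, and Plcb2 had -0.26, which was not called. Among other breakdown genes 0 were called negative and 4 positive, with Abhd2 at 0.88, and among carriers 3 negative, with Fabp3 at -0.78. Of all 34 tested genes of the wider list, 12 were called negative (35.3%, beside 23.8% of all genes) and 9 positive (26.5%, beside 30.2%), with Ptpn22 at 0.82 and the orphan receptor Gpr18, a proposed receptor of cannabinoid-like lipids, at 0.93. Whether cell makeup or library quality sets the levels of Cnr1, Abhd12 or any other member along this axis was not tested.

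Some members varied together, Napepld ran opposite to the others but Daglb, and Daglb had r near 0 throughout. Over the 23 purified libraries, as a description, Abhd6 and Abhd12 had r = 0.77, Cnr1 and Abhd12 0.76 and Cnr1 and Mgll 0.73, while Napepld had -0.72 with Abhd12 and -0.58 with Dagla. Pairs with Daglb stayed between -0.16 and 0.08. Among the 10364 genes averaging 5 CPM or more, those most like Cnr1 in log2 CPM were Pde4dip (r = 0.94) and Pde7b (0.90), and those most like Dagla were Synpo (0.95) and Lingo3 (0.94). For Abhd12 they were Rtn1 (0.93) and Rgs8 (0.92), for Mgll Sult4a1 (0.87) and Cecr6 (0.86), and for Abhd6 Copg2 (0.82) and Nptn (0.82). Faah was closest to Abl2 (0.80) and Bace1 (0.79), Napepld to Eea1 (0.78) and Tmem123 (0.78), and Daglb to Igbp1 and Dido1 (0.65 each).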

How the data were processed

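Ribosome-bound and input RNA of dorsal striatum was sequenced, and the authors deposited whole-number read counts per gene symbol, 1 table per library, unnormalized. The submitters' processing notes name STAR 2.0.0e, HTSeq and the build mm10; the sources used here state no annotation release or strand setting. Tables follow 2 annotations (32531 and 32657 symbols), joined by shared symbols (31735) and renamed pairs (242), which kept 99.5% to 99.9% of gene counts. Rows without a gene served solely to compute the percentages of uniquely aligned reads that hit no gene or more than 1. The members and lists were chosen with earlier results of these data known, and so were the tests. Genes named are the members, up to 4 called pathway genes per direction (otherwise the 2 with the lowest p), and the 2 genes most like each member. The values of 1 further pathway gene are not reported here.

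Counts were tested with edgeR 4.0.16 in R 4.3.3 (TMM, filterByExpr, quasi-likelihood F test, Benjamini-Hochberg threshold 0.05): the 23 purified libraries in 1 fit with group and library set (17 residual degrees of freedom), and 12 purified libraries with the 3 inputs with condition and set (10 degrees). The library set comes from the library numbers, and titles mark set A libraries other than saline withdrawal replicate 2 as copies of lower numbers, a mark whose meaning is not given. No 2 tables of a group were identical in 56 pairs (chi-square per degree of freedom at least 11.8). Confidence intervals are 95%. A prior count of 2 entered log2 CPM. Permutations ran in numpy 2.4.6 and scipy 1.17.1. Fits were tested on simulated data, in genes averaging 5 CPM or more. Of 100 genes changed 2-fold, edgeR called 7% for purified against input, 10% for cocaine against saline withdrawal and 1% for nonescalating against saline. Of 100 genes changed 4-fold it called 51%, 74% and 35%. A member without a call may therefore still have changed by such folds. Alternatives were DESeq2 1.42.0, limma 3.58.1 voom, RLE factors, no low-count filter, other set terms, a replicate block, a covariate, single sets and leaving out each library. Depth was 3279457 to 19122303 gene counts per purified library, and values of Faah, Daglb and Napepld rest on the fewest counts.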

Additional observations from a re-analysis of the deposited data

Results flagged for a closer look

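Dagla in saline withdrawal set A replicate 1 was at 35.6 CPM (639 counts), while the other 4 libraries of the group lay between 97.4 and 116 CPM. The gap to its neighbour was 0.767 of the range of 5 libraries. The same library had the highest share of reads outside genes, 70.7%. Faah in cocaine nonescalating withdrawal set A replicate 2 was at 14.5 CPM (195 counts), with the next library at 5.26 CPM and the lowest at 0.608 CPM, a gap of 0.666 of the range of 9 libraries. These 2 stood out of 24 combinations of a member and a group of 4 to 9 libraries that were examined, and chance marks about 1 in 20.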

How the results depend on the processing

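No member was called in any of the 8 comparisons under any alternative, and no called value changed sign. Of further pathway genes between purified and input RNA, 3 were called, 8 with DESeq2, 1 with set A alone and 0 with a replicate block (46 genes in all, against 1152, 919 with voom and 3095 with DESeq2). Leaving out 1 library gave 2 to 4 pathway genes and 241 to 1546 genes. The replicate block left members and genes of the other 7 comparisons at 0 calls. Deviations from the fitted values of group and set correlated at a median of -0.171 in 25 same-number pairs (-0.519 to 0.544). In 78 other pairs of the same set the median was -0.0684 (-0.579 to 0.591). The ranges overlap widely, so these values do not decide whether replicate numbers pair libraries. The relation to reads outside genes held for 7 members, for 4 without the 2 farthest libraries and for 0 within set B, and for 6 to 7 with 1 library left out. RLE factors shifted all genes by 0.13 (log2) between saline withdrawal and saline, and kept 7 members. For cocaine against saline withdrawal, Abhd12 ranged from 0.25 to 1.74 and stayed positive in all 34 alternatives, while Dagla ranged from -0.48 to 1.88. Depth limits Faah, at 3 to 195 counts per purified library. Intervals cover the libraries at hand.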
